A study of Mus musculus with 27 samples.

Results

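MHC class II antigen presentation was followed in mouse hearts through 7 genes: the class II chain genes H2-Aa, H2-Ab1 and H2-Eb1, the peptide-editing genes H2-DMa and H2-DMb1, the invariant chain gene Cd74 and the class II transactivator gene Ciita. They were matched by symbol to the array's probe annotation, and where a gene had several probe sets the one with the highest mean would have been taken. Of the 7 genes, 6 had a probe set naming them alone, 1 each, among 19937 genes tested. H2-DMb1 was found only on a probe set that also lists its neighbour H2-DMb2, so that probe set is described apart and its values belong to neither gene alone. The hearts came from C57Bl/6J littermate males of 10 to 12 weeks. Surgery was either a sham operation or constriction of the transverse aorta (TAC), in which a suture narrows the aortic arch and overloads the left side of the heart. After surgery they received DMSO vehicle or JQ1, an inhibitor of the BET bromodomain proteins that bind acetylated chromatin, with injections starting at day 1.5. The 9 groups, of 3 arrays each, were sham hearts given vehicle, TAC hearts given vehicle and TAC hearts given JQ1, each at days 3, 11 and 28. No sham group received JQ1, so every JQ1 heart also carried the constriction. Each array measured RNA from a piece of 10 to 20 mg of heart tissue.

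Class II molecules are pairs of an alpha and a beta chain that display peptides from engulfed proteins to CD4 T cells. New pairs bind the invariant chain Cd74, which guides them to endosomes, where cathepsins degrade it and the H2-DM pair exchanges its last fragment for antigen peptides. Dendritic cells, B cells and many macrophages, including cardiac ones, express these genes, and their transcription depends on Ciita, which is recruited to promoters by the factors RFX, CREB and NF-Y bound at the X and Y boxes.

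All values are log2 signals, in which a difference of 1 is a doubling, and signals are compared between arrays for one probe set, never between genes. The labels do not say whether the 3 arrays of a group came from separate animals, so p-values measure the spread between these arrays, which may be technical. The medians of the 27 arrays lay between 6.95 and 7.04, and whole arrays correlated at 0.976 to 0.998. The 9 cardiomyocyte markers had a mean signal of 13.2 to 13.4 on every array, as a check of the tissue. H2-Ea, the partner of H2-Eb1 that mice of the b haplotype such as C57Bl/6 do not transcribe, stayed between 5.36 and 5.78 on all 27 arrays and passed no test in the comparisons averaged over the days. One array stood apart for the class II genes: TAC JQ1 day 3 replicate 1 was the lowest of all 27 for H2-Aa, H2-Ab1, H2-Eb1, H2-DMa and Cd74, and values that rest on it are given with and without it.

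The X and Y boxes are what these promoters are known to share, so the stretch that holds both is shown for some of the genes where it was found. H2-Ab1, Cd74 and Ciita were not searched here. Windows from 250 bases before to the start site were read from RefSeq (GRCm38.p6) and searched on both strands for the core of the Y box, CCAAT, and for a long X box core with 6 fixed letters, G then AC then ATG, each 2 free letters apart. The pair in its order, the long X box core and then the Y box core read on the other strand as ATTGG, with starts 20 to 45 bases apart, was held by 66 of 32851 windows, 0.2%. H2-Eb1 and H2-DMb1 held it, as did H2-Ob and H2-Eb2, relatives from the same region. H2-Aa held a shorter X box core, GNAAC, before the same Y box core at the same spacing, a pattern chosen after the sequences were seen and held by 3.56% of all windows. The long core of each gene shown also holds the shorter one. Capitals mark the 2 cores, and each sequence is read 5′ to 3′ on the gene's strand.
H2-Aa: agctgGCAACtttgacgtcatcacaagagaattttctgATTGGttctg
H2-Eb1: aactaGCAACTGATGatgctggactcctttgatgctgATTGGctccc
H2-DMb1: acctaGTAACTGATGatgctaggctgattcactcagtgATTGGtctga
H2-Ob: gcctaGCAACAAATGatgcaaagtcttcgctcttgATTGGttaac
The H2-Aa stretch lies at chr17:34287862-34287909 on the minus strand, the H2-Eb1 stretch at chr17:34305771-34305817 on the plus strand, the H2-DMb1 stretch at chr17:34153092-34153139 on the plus strand and the H2-Ob stretch at chr17:34238813-34238857 on the plus strand. The 2 cores start 33 bases apart in H2-Aa and H2-DMb1, 32 in H2-Eb1 and 30 in H2-Ob. H2-Oa, another relative, held the shorter pair with starts 33 bases apart, and H2-Eb2 held the long pair at 32. The stretches of H2-Oa and H2-Eb2 are not printed. Averaged over the days neither gene was called with JQ1, at -0.05 and -0.17, and H2-Ob fell by 0.38. Over the arrays H2-Oa and H2-Eb2 followed the median of the 6645 genes with the lowest mean signals, at r = 0.82 and 0.67. Whether the array resolves a change at their signals was not tested. Neither of the 2 windows listed for H2-DMa held either pair, nor did the window of H2-DMb2, which shares a probe set with H2-DMb1. A match describes letters in a window and was not tested as a bound site.

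With JQ1, the class II chains and Cd74 were at their lowest of any condition. Averaged over the 3 days, TAC hearts with JQ1 had 3.66-fold less H2-Aa, 3.29-fold less H2-Ab1, 2.52-fold less H2-Eb1, 2.65-fold less Cd74 and 1.49-fold less H2-DMa than TAC hearts with vehicle. These 5 of the 6 members fell and Ciita did not pass the test, against 16.8% of all genes lower and 29.1% called in either direction. Centring each array on its median turned the balance over all genes, from 2456 higher and 3350 lower to 4644 higher and 2540 lower, and left 5 of the 6 members lower. Without TAC JQ1 day 3 replicate 1 the log2 differences were -1.64 for H2-Aa, -1.48 for H2-Ab1, -1.22 for H2-Eb1, -1.22 for Cd74 and -0.51 for H2-DMa, and the 5 stayed called. The median of the 6 members was -1.37 on the log2 scale, beside 0.02 for all genes. In bulk tissue, fewer cells of a type and less RNA per cell cannot be told apart.

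H2-Aa, the alpha chain of the I-A molecule, read 9.76, 10.06 and 9.44 at day 3 in the TAC vehicle arrays and 6.73, 8.38 and 9.20 in the TAC JQ1 arrays. At day 11 the same gene read 10.88, 10.33 and 10.28 with vehicle and 9.23, 8.89 and 8.42 with JQ1. At day 28 it read 10.71, 10.96 and 10.86 with vehicle and 9.08, 7.94 and 8.58 with JQ1. Every JQ1 array was below every TAC vehicle array of its day, a separation that 23.1%, 36.3% and 35% of all genes showed at days 3, 11 and 28 in one direction or the other, and the JQ1 arrays of day 3 spread far more widely than any other group. The log2 differences were -1.65 ± 0.38 (SE) at days 3 and 11, with limma adjusted p = 0.00561 and 0.00422, and -2.31 ± 0.38 at day 28, adjusted p = 0.00014.

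H2-Ab1, the beta chain that pairs with it, differed by -1.72, -1.47 and -1.97 on the log2 scale at days 3, 11 and 28 (SE 0.39; limma adjusted p = 0.00486, 0.0117 and 0.000848). Its day 28 arrays read 9.72, 10.30 and 9.72 with vehicle and 8.31, 7.37 and 8.15 with JQ1, with no overlap. H2-Eb1, the beta chain of the I-E molecule, differed by -0.99, -1.44 and -1.57 (SE 0.22; limma adjusted p = 0.00417, 8.44e-05 and 2.1e-05). At day 28 it read 9.86, 10.09 and 9.77 with vehicle and 8.71, 8.11 and 8.20 with JQ1. For all 3 chain genes the 9 JQ1 arrays lay below all 18 vehicle arrays, sham included, an arrangement that 267 genes, 1.34% of those tested, showed. H2-Aa spanned 6.73 to 9.23 over the JQ1 arrays, with a median of 8.58. It spanned 9.44 to 10.96 over the TAC vehicle arrays and 9.58 to 10.71 over the sham arrays.

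Cd74, the invariant chain, read 9.55, 9.81 and 9.22 in the TAC vehicle arrays of day 3 and 7.29, 8.62 and 9.31 with JQ1, and here the groups overlapped by 1 array. At day 11 it read 10.31, 10.04 and 9.81 with vehicle against 9.10, 8.88 and 8.58 with JQ1. At day 28 it read 10.27, 10.71 and 10.30 against 8.80, 7.998 and 8.83. The later days did not overlap, and the widest gap between the means was at day 28. The log2 differences were -1.12, -1.20 and -1.89 (SE 0.31; limma adjusted p = 0.02, 0.0102 and 0.000141).

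H2-DMa, the alpha chain of the peptide editor, had smaller differences. It read 7.66, 7.65 and 7.67 in TAC vehicle hearts at day 11 and 7.10, 7.15 and 6.97 with JQ1, a log2 difference of -0.59 ± 0.14 (limma adjusted p = 0.00431). At day 28 it read 8.06, 8.16 and 7.89 with vehicle and 7.55, 7.24 and 6.95 with JQ1, a difference of -0.79 ± 0.14 (limma adjusted p = 0.000201). Both days were free of overlap, while the day 3 arrays overlapped and the difference of -0.34 did not pass the test (adjusted p = 0.118). The probe set shared by H2-DMb2 and H2-DMb1 differed with JQ1 by -0.49, -0.70 and -0.52 (adjusted p = 0.0342, 0.00247 and 0.016 in the same limma model). Averaged over the days its difference was -0.57 ± 0.09, the size seen for H2-DMa, at -0.57 ± 0.08.

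Ciita, the transactivator on which the other members depend, stayed within 0.74 log2 units over all 27 arrays, between 6.35 and 7.08. Its JQ1 arrays ran from 6.35 to 6.92, its TAC vehicle arrays from 6.40 to 6.94 and its sham arrays from 6.59 to 7.08, so all 3 overlapped. The mean difference with JQ1 was -0.15 (limma adjusted p = 0.135), and with the settings used throughout Ciita was called in none of the 16 comparisons. It was called with array weights in JQ1 against vehicle at day 11 (-0.27, limma adjusted p = 0.0224) and against sham at day 11 (-0.32, 0.0106), and against sham at day 3 with quantile normalization applied again (-0.27, 0.0467). Without TAC vehicle day 11 replicate 3 or without TAC JQ1 day 28 replicate 2 this mean difference passed the test, at -0.20 in both cases (adjusted p = 0.0358 and 0.0411). Over the arrays Ciita followed the median of the 6645 genes with the lowest mean signals with a correlation of 0.65, and with 0.76 on deviations from the group means. The same correlation over the arrays lay between -0.09 and 0.04 for the chains, H2-DMa and Cd74. Whether the array resolves a change in Ciita at this signal was not tested.

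By day, JQ1 lowered 4 of 6 members at day 3 against 7.61% of all genes, 5 of 6 at day 11 against 8.43% and 5 of 6 at day 28 against 12.4%; the shares called in either direction were 11.9%, 16% and 19.6%. With the arrays centred on their medians 1042, 1099 and 2106 of the 19937 genes were lower and 1224, 2334 and 2700 higher, in place of 1518, 1680 and 2480 lower and 854, 1500 and 1427 higher, with the same counts of members. With quantile normalization applied again, 1424 were lower and 1246 higher at day 3, 2245 and 2250 at day 28, and 3109 and 3665 over the mean of the days, also with the same counts of members. The day 3 falls were smaller without TAC JQ1 day 3 replicate 1: -0.97 for H2-Aa (adjusted p = 0.0454), -0.99 for H2-Ab1 (0.0328), -0.65 for H2-Eb1 (0.0426) and -0.56 for Cd74 (0.183). Fitted on only the groups compared, none of the 4 was called at day 3 (adjusted p = 0.0945 to 0.234). Cd74 also lost its day 3 call without TAC vehicle day 3 replicate 1 (adjusted p = 0.053) or replicate 2 (0.0992). At day 11, leaving out TAC vehicle replicate 1 ended the calls of H2-Ab1 (adjusted p = 0.0516) and Cd74 (0.0542), and leaving out TAC JQ1 replicate 3 ended that of H2-Ab1 (0.0518). At day 28 no call of a member was lost when any 1 array was left out.

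**Figure D1:**
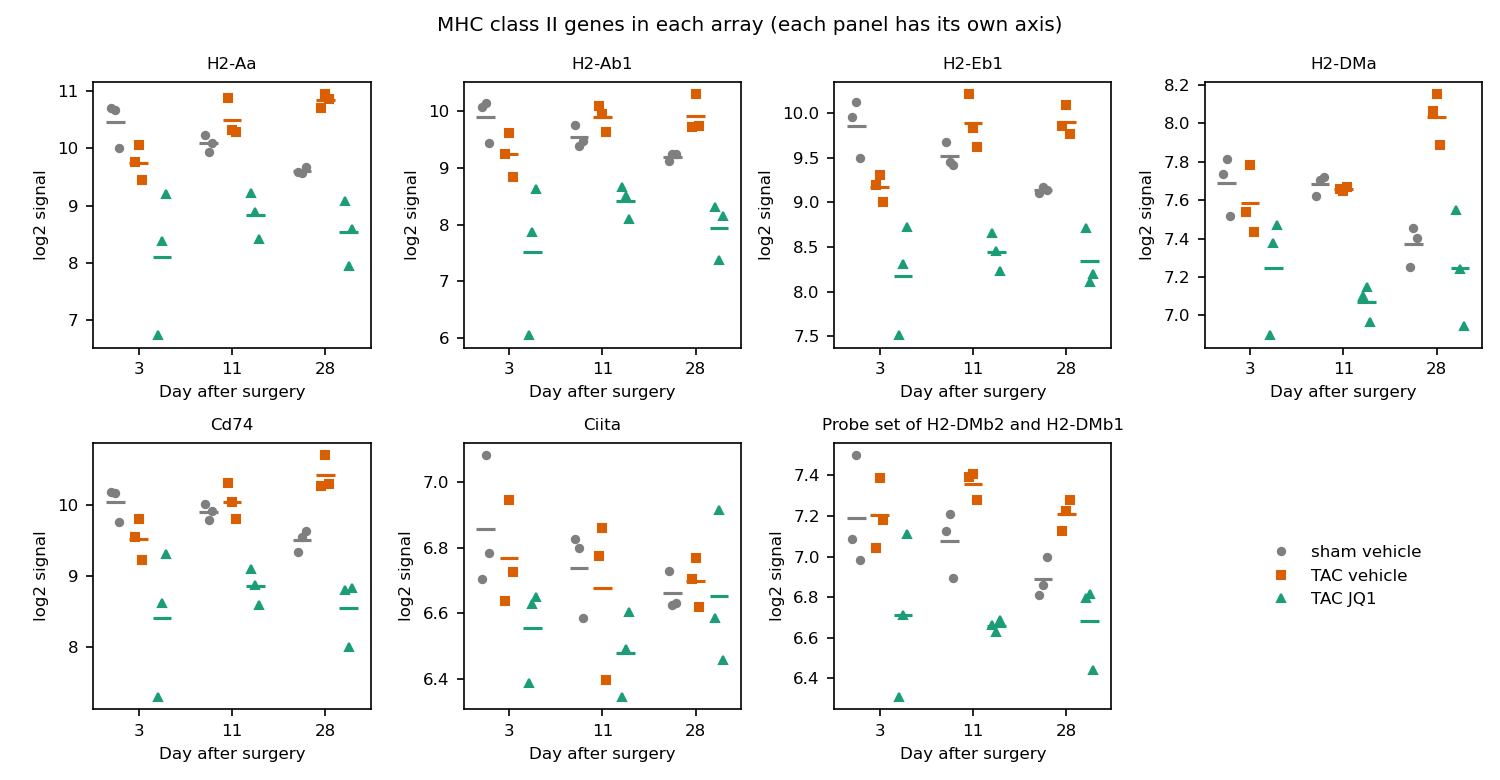
Log2 signal of each array (vertical axis, its own scale in each panel) by day after surgery for the 6 members and the probe set of H2-DMb2 and H2-DMb1; points are arrays, bars are means of 3. The JQ1 triangles of H2-Aa run from 6.73 to 9.23 and lie below every vehicle array, while those of Ciita overlap the vehicle arrays.

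In TAC hearts with vehicle, class II genes were called higher than in sham at day 28, and none was called at day 3 or 11. At day 28, H2-Aa rose 2.35-fold over sham, Cd74 1.89-fold, H2-Eb1 1.70-fold and H2-DMa 1.59-fold. These 4 of 6 members compare with 8.13% of all genes called higher and 15.1% in either direction; with the arrays centred on their medians 1348 genes were higher and 1739 lower, in place of 1621 and 1392, with 4 members higher as before. Their medians were 0.74 for the members and -0.05 for all genes. H2-Ab1 was 1.65-fold higher without passing the test (limma adjusted p = 0.241), and was called with array weights (0.0451) or with only these 2 groups fitted (0.0108). Its 3 TAC arrays lay above its 3 sham arrays, as 37.7% of all genes were separated in one direction or the other.

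The sham arrays of day 28 read 9.59, 9.58 and 9.67 for H2-Aa, against 10.71, 10.96 and 10.86 with TAC, a log2 difference of 1.23 ± 0.38 (limma adjusted p = 0.0298). Cd74 read 9.33, 9.55 and 9.63 in sham and 10.27, 10.71 and 10.30 with TAC, a difference of 0.92 ± 0.31 (adjusted p = 0.0487 in the limma model). H2-DMa read 7.25, 7.46 and 7.40 in sham and 8.06, 8.16 and 7.89 with TAC, a difference of 0.67 ± 0.14 (limma adjusted p = 0.00139). The arrays of the 2 groups were separated for all 3 genes. H2-Eb1 differed by 0.77 ± 0.22 (limma adjusted p = 0.0187). Only the call of H2-DMa held whichever array of the 2 groups was left out. Without any 1 of the 6 arrays, H2-Aa had adjusted p = 0.054 to 0.0902 and Cd74 0.0699 to 0.164, and H2-Eb1 lost its call without TAC vehicle replicate 2 (0.0754), sham replicate 1 (0.0611) or sham replicate 3 (0.0501). The day 28 count then fell to 1 or 2 members. With trend and robust options H2-Aa (0.0527) and Cd74 (0.0777) were not called.

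At day 3 no member was called in TAC against sham, where 7.55% of all genes were, and the median of the 6 members was -0.58. The differences were -0.71 for H2-Aa, -0.65 for H2-Ab1, -0.69 for H2-Eb1 and -0.52 for Cd74, with limma adjusted p of 0.34, 0.417, 0.0569 and 0.424. For H2-Eb1 the TAC arrays (9.20, 9.31 and 9.01) lay below the sham arrays (9.96, 10.13 and 9.50), as 21.6% of all genes were separated in one direction or the other. Its test passed without sham vehicle day 3 replicate 3, at -0.87 (adjusted p = 0.0356). At day 11, where 15.5% of all genes were called, no member was, and their median difference was 0.25. Averaged over the 3 days no member was called either, against 25.9% of all genes, and the members' median was 0.16 beside -0.03 for all genes.

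**Figure D2:**
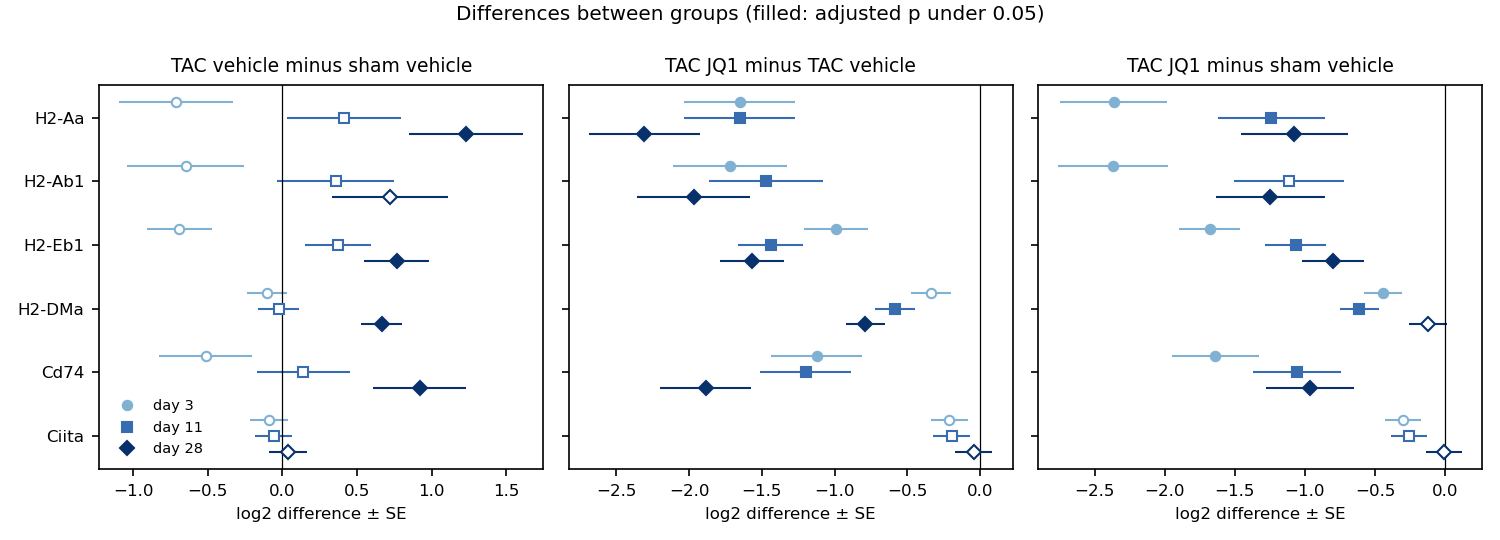
Log2 difference with its standard error (horizontal axis) for 6 class II genes (rows) in 3 comparisons (panels) at days 3, 11 and 28 (marker shape); filled markers have adjusted p under 0.05. In the middle panel H2-Aa lies at -1.65, -1.65 and -2.31, and in the left panel the filled markers are all of day 28.

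The effect of TAC differed between the days for 1 member in a test of the difference itself, H2-Eb1 (moderated F test in limma, adjusted p = 0.0348), among 1.31% of all genes. Its TAC effect went from -0.69 at day 3 to 0.37 at day 11 and 0.77 at day 28. The other members gave adjusted p = 0.0556 for H2-DMa, 0.128 for H2-Aa, 0.191 for Cd74 and 0.363 for H2-Ab1. The H2-Eb1 call was lost on leaving out any of 11 arrays, with adjusted p up to 0.0962 without TAC vehicle day 3 replicate 3. No member passed the test that the JQ1 effect differed between the days, where 1.07% of all genes did. Nor did any member pass for the level between days in sham (0.0652% of all genes), TAC vehicle (5.11%) or TAC JQ1 (8.9%).

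In sham hearts the chains were highest at day 3. H2-Aa read 10.71, 10.67 and 10.01 at day 3, 10.23, 9.93 and 10.09 at day 11 and 9.59, 9.58 and 9.67 at day 28. The day 28 sham arrays lay below all those of day 3, but the difference between days did not pass the test (limma adjusted p = 0.859). The sham level behind each TAC comparison was therefore not the same in these arrays: 10.47 ± 0.40 (SD, n = 3) at day 3 and 9.61 ± 0.05 at day 28.

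Set in order, the 9 groups fell alike for H2-Aa, H2-Ab1, H2-Eb1 and Cd74. TAC vehicle day 28 was highest, followed by TAC vehicle day 11 and sham day 3, then sham day 11, TAC vehicle day 3 and sham day 28, and the 3 JQ1 groups came last, in the order of days 11, 28 and 3. For H2-Aa their means were 10.84, 10.50, 10.47, 10.09, 9.75, 9.61, 8.84, 8.54 and 8.10. Each neighbouring pair overlapped in its arrays except sham day 28 and TAC JQ1 day 11, which were separated in all 4 genes, and, for H2-Eb1, sham day 11 and TAC vehicle day 3. H2-DMa also had its 3 JQ1 groups last, but its TAC vehicle day 28 group stood above all others with no overlap, and its JQ1 groups of days 3 and 28 overlapped sham day 28.

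Hearts with TAC and JQ1 also held less class II RNA than sham hearts. At day 3, 5 of 6 members were lower than in sham (10.7% of all genes lower, 17.6% called), with H2-Aa 5.15-fold, H2-Ab1 5.17-fold, H2-Eb1 3.21-fold and Cd74 3.11-fold lower. On the log2 scale these were -2.36, -2.37, -1.68 and -1.64, and without TAC JQ1 day 3 replicate 1 they were -1.68, -1.64, -1.345 and -1.08, all still called. At day 11, 4 of 6 were lower (5.51% lower, 10.5% called), with differences of -1.24 for H2-Aa, -1.07 for H2-Eb1, -1.06 for Cd74 and -0.61 for H2-DMa. At day 28, 4 of 6 were lower (12.6% lower, 19.9% called): H2-Ab1 by -1.25, H2-Aa by -1.08, Cd74 by -0.97 and H2-Eb1 by -0.80 on the log2 scale. These comparisons share their JQ1 arrays with those against TAC vehicle. Median centring gave 1499, 786 and 2269 genes lower and 1789, 1158 and 1399 higher at the 3 days, in place of 2127, 1098 and 2508 lower and 1384, 999 and 1468 higher, with the same counts of members. H2-DMa at day 28 differed by only -0.12 (limma adjusted p = 0.631), its JQ1 arrays of 7.55, 7.24 and 6.95 overlapping the sham arrays.

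The day 28 calls against sham rested on TAC JQ1 day 28 replicate 2, the lowest of its group for the 3 chains and Cd74. Without it none of the 6 members was called, with differences of -0.78 for H2-Aa, -0.96 for H2-Ab1, -0.69 for H2-Eb1 and -0.69 for Cd74 (limma adjusted p = 0.23, 0.131, 0.0541 and 0.173). Without any 1 of the 3 sham arrays of that day, 1 or 2 members were called. At day 11, H2-Aa and Cd74 lost their calls without TAC JQ1 replicate 2 or 3 or any sham array (adjusted p = 0.0629 to 0.139), which left 2 members called. At day 3 the chains and Cd74 kept theirs, whereas H2-DMa lost its call without TAC JQ1 replicate 1 (adjusted p = 0.215), sham replicate 1 (0.0763) or sham replicate 2 (0.102).

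Among the relatives of the classical genes, H2-Ob, the beta chain of the H2-O modulator of H2-DM, fell with JQ1 by 0.38 ± 0.06 on the log2 scale over the mean of the days (limma adjusted p = 3.58e-05). At day 11 it read 7.05, 6.82 and 6.67 with vehicle and 6.50, 6.22 and 6.43 with JQ1, without overlap. H2-Oa, H2-Eb2 and H2-Ea were not called, at -0.05, -0.17 and 0.03. Whether the array resolves a change at the low signals of these genes was not tested. None of the 4 was called in TAC against sham.

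Of 7 genes for the factors that bind the X and Y boxes, 4 rose and 1 fell with JQ1 over the mean of the days, beside 12.3% of all genes higher and 16.8% lower, while TAC gave 1 higher and 2 lower, beside 13% and 12.9%. The gene that fell was Rfx5, which encodes the DNA-binding subunit of RFX. Its TAC vehicle arrays read 7.28, 7.24 and 7.10 at day 3, 7.26, 7.29 and 7.23 at day 11 and 7.50, 7.40 and 7.51 at day 28. With JQ1 they read 6.82, 6.64 and 6.70, then 6.93, 6.84 and 6.95, then 6.95, 6.45 and 6.69. Each JQ1 array lay below each TAC vehicle array, as for 3.15% of all genes. The differences were -0.48, -0.36 and -0.77 (SE 0.11; limma adjusted p = 0.0035, 0.0228 and 1.43e-05). Against sham, Rfx5 differed by -0.43, -0.33 and -0.46 at days 3, 11 and 28 (limma adjusted p = 0.00529, 0.0483 and 0.00236). Nfya, the subunit that gives NF-Y its sequence specificity, rose by 0.37 and Creb1 by 0.38 over the mean of the days, and Rfxap and Nfyb rose by 0.14 and 0.15. Rfxank and Nfyc were not called, at -0.20 and 0.02. Across the 27 arrays Rfx5 followed the mean of the 3 chains and Cd74 with r = 0.78, and on deviations from the group means r was 0.01. Without TAC JQ1 day 3 replicate 1 these were 0.83 and 0.28.

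The endosomal list took in genes of processing and of turnover, Cd63 among them, and not only those that process antigen. Of its 15 genes 9 rose with TAC and 8 fell with JQ1, beside 13% of all genes higher with TAC and 16.8% lower with JQ1. Their medians were 0.15 and -0.17. Ctss, the cathepsin that trims the invariant chain in antigen-presenting cells, rose by 0.82 with TAC and its JQ1 difference was -0.82. In the day 11 arrays Ctss lay between 7.99 and 8.01 in sham, read 8.94, 8.95 and 8.80 with TAC and lay between 7.978 and 8.002 with TAC and JQ1. Its JQ1 arrays overlapped the sham arrays at that day, unlike the chains, whose JQ1 arrays were below sham. At day 3 the JQ1 arrays of Ctss (8.17, 8.04 and 8.08) lay below sham (8.57, 8.49 and 8.27), as those of the chains did. At day 28 they (8.46, 8.10 and 8.07) lay above sham (7.96, 7.84 and 7.75). Ctsz, a lysosomal carboxypeptidase, rose by 0.72 with TAC and changed by -0.54 with JQ1. The thiol reductase Ifi30 gave 0.69 and -0.49 and the asparaginyl endopeptidase Lgmn 0.40 and -0.40, all called. The lysosomal cathepsins Ctsb and Ctsd were not called with JQ1, at -0.08 and -0.07.

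In class I presentation, the parallel route for peptides from inside the cell, differences were smaller in the genes tested. The class I chain genes H2-K1 and H2-D1 were not among them, so these chains were not compared with those of class II. Of 13 genes, 4 rose and 1 fell with TAC, and 6 fell with JQ1, at a median of -0.14, beside the same shares of all genes (13% higher and 12.9% lower with TAC, 16.8% lower with JQ1). Among those named by p-value were Psmb10, a subunit of the immunoproteasome, at -0.35, and the peptide-loading genes Tapbpl at -0.26 and Tapbp at -0.21. In the interferon gamma axis, the best known inducer of Ciita, 2 of 9 genes rose and 1 fell with TAC and 1 fell with JQ1, where 25.9% of all genes were called with TAC and 16.8% lower with JQ1, so these counts are near or below those of all genes. The gene that fell with JQ1 was Ifngr1, a receptor chain, at -0.32 (limma adjusted p = 1.85e-05). Of 8 costimulatory and class II receptor genes 3 rose with TAC, and with JQ1 3 fell and 1 rose, beside 13% higher with TAC and 16.8% lower and 12.3% higher with JQ1 over all genes. The B7 genes Cd86 and Cd80 changed by -0.56 and -0.43 with JQ1, and the inhibitory ligand Cd274 by -0.35, all called.

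**Figure D3:**
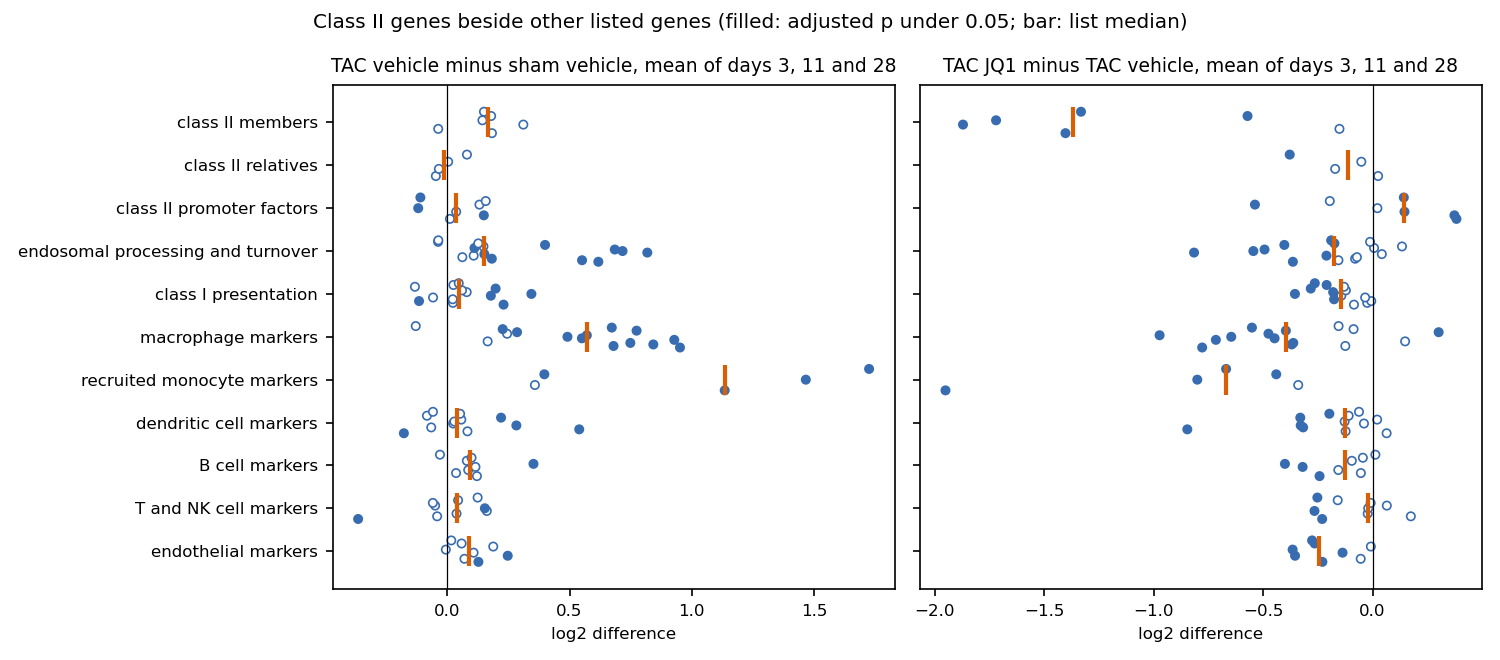
Log2 difference averaged over days 3, 11 and 28 (horizontal axis) for each gene of 11 lists (rows) in TAC against sham (left) and JQ1 against vehicle under TAC (right); filled points have adjusted p under 0.05 and bars are list medians. The class II members have a median of -1.37 on the right and 0.16 on the left, and macrophage markers -0.40 and 0.57.

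Markers of cells that can carry class II, and of other heart cells, were followed in the same comparisons. With TAC 13% of all genes were higher and 12.9% lower, and with JQ1 12.3% were higher and 16.8% lower. Of 15 macrophage markers 12 rose with TAC over the mean of the days, with a median of 0.57, and with JQ1 10 fell and 1 rose, with a median of -0.40. Of 5 genes listed as markers of recruited monocytes 4 rose with TAC and 4 fell with JQ1, at medians of 1.14 and -0.67. Besides Ccr2, those named by p-value were Fn1 (1.47 with TAC and -0.80 with JQ1) and Vcan (1.73 and -0.67). Which heart cells gave these signals was not tested. The chemokine receptor Ccr2 changed by 1.14 with TAC and by -1.95 with JQ1, and the Fc receptor Fcgr1 by 0.57 and -0.97, all called. Ptprc, the CD45 of all leukocytes, rose by 0.60 with TAC and changed by -0.74 with JQ1 (limma adjusted p = 5.89e-07). Dendritic cell markers had 5 of 12 lower with JQ1 (median -0.13), B cell markers 3 of 8 (-0.13), T and NK cell markers 3 of 9 (-0.02) and endothelial markers 6 of 8 (-0.25). Of the dendritic cell markers, Cd209a changed by -0.85, Clec9a by -0.33 and Itgax by -0.33 with JQ1, while 7 of the 12 were not called. Group means ran from 6.255 to 6.568 for dendritic cell markers, 6.579 to 6.865 for B cell markers and 6.072 to 6.273 for T and NK cell markers. The median gene level was 7.34. Whether the array resolves changes at such signals was not tested. Fibroblast markers, like those of macrophages, mostly rose with TAC, 7 of 8 at a median of 0.33. With JQ1 5 of these 8 fell and 1 rose, at a median of -0.15. Of 9 cardiomyocyte markers 2 rose and none fell with JQ1, while 4 fell and none rose with TAC. The part of these markers' shifts in the class II result was not tested.

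Many macrophage markers, though not all, stood on the other side of sham from the class II genes in the JQ1 hearts of day 28. There 8 of 15 macrophage markers were higher than in sham and none was called lower, beside 7.36% of all genes higher and 12.6% lower, and their median was 0.41. Of the 6 class II members 4 were lower, with a median of -0.88. None of these calls held without TAC JQ1 day 28 replicate 2. With trend and robust options those of H2-Aa and Cd74 were lost (limma adjusted p = 0.0805 and 0.0522). The mean signal of the 15 macrophage markers ran from 8.86 to 9.18 in these 3 arrays and from 8.45 to 8.57 in the sham arrays. The complement gene C1qa and the macrophage receptor gene Adgre1 were each higher than in sham by 1.01 and 1.02, and the lysozyme gene Lyz2 by 0.74, all called. Of the 5 recruited monocyte markers 1 was called higher than in sham and 0 lower, with a median of -0.02. Ccr2, 1 gene of that list, had its arrays below sham, at 5.62, 5.50 and 4.96 against 6.07, 5.77 and 6.12. It did not pass the test (-0.62, limma adjusted p = 0.249). Fcgr1, a macrophage marker, had a mean of 6.66 against 6.78 in sham, with overlap (-0.12, adjusted p = 0.574 in the limma model). At day 3, 1 macrophage marker was higher and 3 lower than in sham, beside 6.94% and 10.7% of all genes, and at day 11 the counts were 2 and 2, beside 5.01% and 5.51%. Ptprc had a mean of 7.62 ± 0.36 (SD, n = 3) at day 28 with JQ1 and 7.53 ± 0.06 in sham. At day 3 its JQ1 arrays lay below all sham arrays, with means of 7.37 ± 0.08 and 7.96 ± 0.13. The difference between the lists was not tested.

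**Figure D4:**
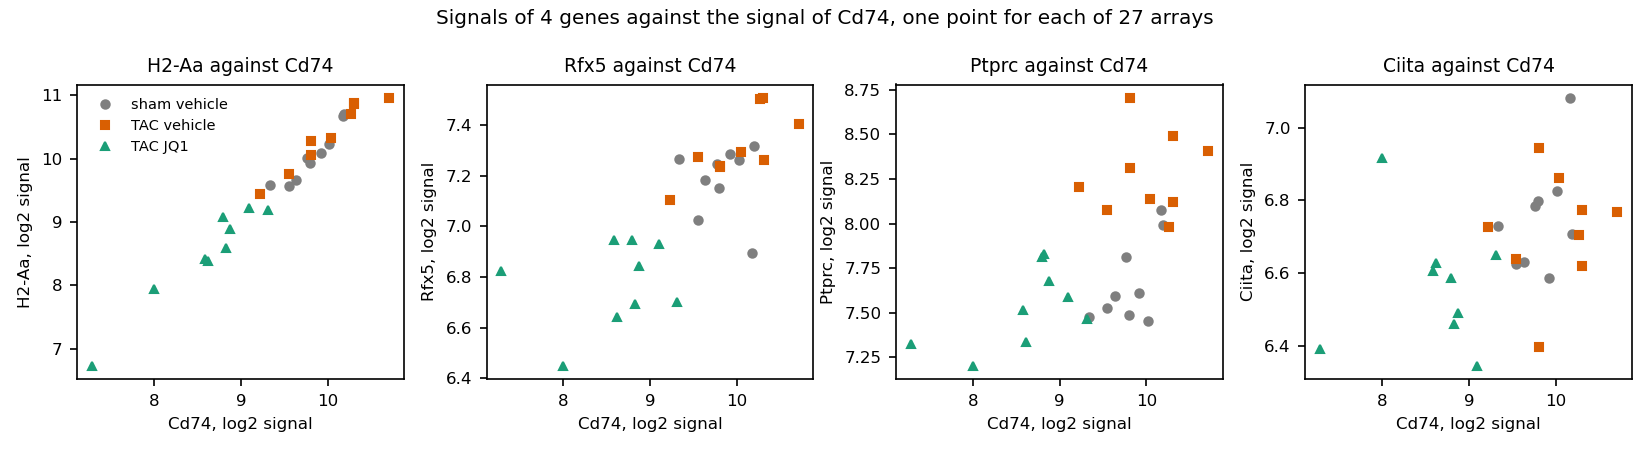
Log2 signals of H2-Aa, Rfx5, Ptprc and Ciita (vertical axes) against that of Cd74 (horizontal axis), with a point for each of 27 arrays. H2-Aa follows Cd74 along one line (r = 0.99), and TAC JQ1 arrays overlap sham arrays for Ptprc but lie below them for H2-Aa.

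Across the 27 arrays, which share their groups, the chains and Cd74 moved almost as one. H2-Aa correlated with H2-Ab1 at 0.98, with H2-Eb1 at 0.98 and with Cd74 at 0.99, and on deviations from the group means at 0.97, 0.94 and 0.96. Without TAC JQ1 day 3 replicate 1 the latter were 0.92, 0.90 and 0.91, so they varied together between other arrays of one group too. H2-Aa correlated with H2-DMa at 0.86 (0.72 within groups, 0.53 without that array) and with Ciita at 0.43 (0.14 within groups, -0.12 without that array). Of the 8 endothelial markers, Kdr, a receptor gene picked out after its values were seen, correlated most closely with the mean of the chains and Cd74, at 0.81 over the arrays and 0.85 within groups, and at 0.71 and 0.67 without that array. With all 27 arrays the markers did not go one way. Within groups Egfl7 gave 0.71, Erg 0.60, Emcn 0.51 and Tie1 0.48, against -0.01 for Cdh5, -0.28 for Tek and -0.48 for Pecam1. Without that array the last 3 were 0.51, 0.33 and 0.46 and Egfl7 0.36. All 8 markers were then positive within groups, from 0.21 for Tie1 to 0.67 for Kdr, so the split in sign turned on 1 array. Kdr read 9.18, 9.69 and 10.18 in the JQ1 arrays of day 3, in the same order as H2-Aa there (6.73, 8.38 and 9.20). Over all 8 endothelial markers the mean signal ran from 9.85 to 10.03 in these arrays and from 10.03 to 10.17 in the TAC vehicle arrays of day 3. The part of these markers in the spread of the class II genes was not tested.

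The genes outside the 7 whose pattern over the 27 arrays was most like the mean of the chains and Cd74 were 1110038F14Rik (r = 0.93), Tet1 (0.92), Tatdn3, Pramel12, Man2b2 and Lrrc49 (0.91 each). Leaving out the 2 arrays farthest from the median of that mean gave 0.84 to 0.88, and within groups the values ran from 0.48 for Lrrc49 to 0.81 for 1110038F14Rik. Tet1, a DNA demethylase of the TET family, differed by -0.75 ± 0.06 with JQ1 over the mean of the days and by -0.01 with TAC. Man2b2, a lysosomal mannosidase, differed by -0.55 and 0.06. For Ciita the nearest genes were H2-Eb2 (r = 0.84), Il3ra (0.83) and Ildr2 (0.82), which themselves followed the median of the dimmest genes at 0.67, 0.79 and 0.81.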

How the data were processed

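Deposited by the authors were log2 signals of 34760 probe sets on each of 27 arrays, from total RNA amplified with the Ambion WT kit and labelled by the Affymetrix WT protocol, per the labels. The sources used here give neither their normalization nor a build. Per the submitters' processing notes the authors used limma, whose version is not stated. Of the probe sets 21640 named 1 gene, 1321 several and 11799 none; for 954 genes with several the one with the highest mean was used, which left 19937 genes.

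One limma model (version 3.58.1, R 4.3.3) with a mean for each of 9 groups (18 residual and 4.9 prior degrees of freedom) gave all comparisons, with eBayes and Benjamini-Hochberg adjustment over the 19937 genes and a threshold of 0.05. It was tested on simulated data. No block for replicate number was used: same-numbered arrays' deviations correlated between -0.46 and 0.50. The members and lists (138 of 148 listed names matched) were chosen with earlier results of these data known, so the counts are descriptions. Named genes were all members, up to 3 per list by p-value over the mean of the days, H2-Ea, and the 6 and 3 genes most correlated with the chains and with Ciita; others (Kdr, Ptprc, Adgre1, C1qa, Ctsb, Ctsd, Lgmn, Ifi30, Rfxap, Nfyb, Rfxank, Nfyc) were chosen after their values were seen. Alternatives were quantile normalization again, median centring, no dim genes, probe sets averaged per gene, a trend and robust option in eBayes, array weights, only the groups compared, a replicate block and each array left out; correlations without TAC JQ1 day 3 replicate 1 were added after the data were seen, when all 8 endothelial markers were named. Array number limits the precision.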

Additional observations from a re-analysis of the deposited data

Results flagged for a closer look

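The effect of TAC on H2-Eb1 differed between days 3, 11 and 28 in a test of the difference itself (limma moderated F test, adjusted p = 0.0348). Its log2 difference from sham was -0.69 at day 3, 0.37 at day 11 and 0.77 at day 28. Its sham arrays went from a mean of 9.86 at day 3 to 9.14 at day 28, and its TAC vehicle arrays from 9.17 to 9.91.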

How the results depend on the processing

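Of the 66 differences of a member between 2 conditions, the 36 called ones kept their sign under every alternative. Of the others, 7 took the other sign in at least 1 setting, never with a call: 5 of Ciita (up to 0.09 in JQ1 against sham at day 28, from -0.01) and 2 of H2-DMa (up to 0.03 in JQ1 against sham at day 28, from -0.12). The 5 members called with JQ1 over the mean of the days stayed called throughout, H2-Aa between -2.05 and -1.64 and H2-DMa between -0.62 and -0.49. Counts of members called moved as follows. TAC at day 3 went from 0 to 1 with quantile normalization again, median centring or no dim genes (H2-Eb1), and TAC at day 11 from 0 to 1 with array weights. TAC at day 28 gave 5 with array weights or only the groups compared (H2-Ab1 gained), in place of 4, and JQ1 at day 11 gave 6 with array weights (Ciita), in place of 5. JQ1 against sham at day 3 gave 6 with quantile normalization again (Ciita) and 4 with array weights (H2-DMa lost), in place of 5, and at day 11 it gave 6 with array weights (H2-Ab1 and Ciita) and 5 on only the groups compared (H2-Ab1), in place of 4. With trend and robust options the counts were 2 in place of 4 for TAC at day 28, and 2 in place of 4 for JQ1 against sham at day 11 and at day 28. Fitted on only the groups compared, JQ1 at day 3 gave 0 in place of 4 (adjusted p = 0.0945 to 0.234) and JQ1 against sham at day 3 gave 3 in place of 5. The mean TAC effect gave 3 with array weights and 2 on only the groups compared, in place of 0. The TAC effect between days gave 2 with quantile normalization, centring, no dim genes or trend and robust options, 4 with array weights and 5 on only the groups compared, in place of 1. The JQ1 effect between days gave 1 with array weights. The TAC vehicle level between days gave 1 with quantile normalization or no dim genes, 4 with array weights and 3 on only the groups compared. With 1 array left out, the counts ran from 0 to 1 for TAC at day 3, 1 to 2 at day 28, 3 to 5 for JQ1 at days 3 and 11, 4 to 5, 2 to 4 and 0 to 4 for JQ1 against sham at days 3, 11 and 28, 5 to 6 for the mean JQ1 effect, and 0 to 2 for the TAC effect between days and the TAC JQ1 level between days. The causes were not tested.

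With the replicate block, members called were 3 for TAC at day 28, 3 for JQ1 against sham at days 11 and 28, and 0 for the TAC effect between days; it left the counts against TAC vehicle at 4, 5 and 5. The arrays share only a number. The levels between days were not fitted with the block. In the other comparisons the counts of members were as without it.

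Counts over all genes moved by more than 1.5 times too. Between the settings they ran from 250 to 2902 for TAC at day 3 (1506 as reported), 2176 to 5974 at day 11 (3097) and 1794 to 4279 at day 28 (3013). For JQ1 they ran from 422 to 3012 at day 3 (2372), 2039 to 6933 at day 11 (3180) and 2126 to 4806 at day 28 (3907), and against sham from 1178 to 6334 at day 3 (3511) and 1180 to 5461 at day 11 (2097). For the TAC and JQ1 effects between days they ran from 96 to 2045 (261) and 2 to 2710 (213), and for the level between days in sham, TAC vehicle and TAC JQ1 from 0 to 2164 (13), 422 to 2103 (1019) and 43 to 5244 (1774).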
